A study of Mus musculus with 9 samples.

Results

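Hoxc13, Msx2, Foxn1, Elf5, Lef1 and Dlx3 are transcription factors of the hair matrix, the dividing epithelium at the base of the follicle, and of the hair-forming cells above it. They were followed in whole mouse skin across a control group and 3 transgenic lines. Members were taken as the probe sets (groups of short probes against one transcript) annotated to 1 of these genes alone. This gave 8 of the 20380 probe sets that name 1 gene, or 6 of 12393 genes, and every member was measured. Skin was taken 30 days after birth from mice of a mixed C57BL/DBA/FVB background, and RNA pooled within a genotype was hybridised to 9 arrays. The controls (LC) gave 3 pools, and the transgenic lines L60, L84 and LA gave 2 pools each. The series title concerns an Akt kinase that is always active and a loss of bone morphogenetic protein (BMP) signalling. The transgene of each line, the promoter that drives it, how the lines differ and how many mice made up a pool are not given in the sources used here. P-values therefore measure only the spread between these pools.

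The hair matrix feeds the concentric layers of the growing hair: the medulla, cortex and cuticle of the shaft, and the inner root sheath around it. BMP and Wnt signals reach these cells and act through transcription factors. Lef1 is an HMG box factor that binds DNA together with beta-catenin, the carrier of the Wnt signal. Msx2 and Dlx3 are homeobox factors that respond to BMP, and Hoxc13 is a homeobox factor that binds hair keratin genes. Foxn1 is the forkhead factor missing in nude mice, whose hair shafts do not form normally. Elf5 is an ETS factor of glandular and follicular epithelium, best known from the mammary gland. Follicles hold an active matrix only while hair grows.

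The deposited values are scores. Within a probe set the 9 values average 0 and have an SD of 1, so a score gives no level and no fold change. A difference is counted in SDs of the probe set over the arrays. If 5 arrays were alike and high and 4 alike and low, the difference would be 1.9, and for 3 high and 6 low it would be 2. Differences near these values therefore do not mean a large fold. They can also come with a wide spread, as for the hair keratin Krt32 in LA (-2.21 ± 0.582, SE), so each is read with its SE. The labelled tissue could not be checked by the level of its markers for the same reason. The 18S ribosomal RNA signal was high on 3 arrays, namely LC 1, L60 1 and L84 1 (mean score 0.339 to 2.09), and low on the other 6 (-0.642 to -0.528), and results are given below within each of these classes. Xist, which coats and silences an X chromosome in females, was low on the 4 arrays numbered 1 (-1.06 to -0.822) and higher on the other 5 (0.077 to 1.48), so the replicate number went with Xist and, except in LA, with 18S. The spread of gene scores was wider on L84 1 and LA 2 (SD 1.13 and 1.2) than on the other 7 arrays (0.676 to 0.836), and the calls without each of them are given below. The part of these signals in the results was not tested beyond those values. In whole skin, fewer matrix cells and less RNA per cell cannot be told apart.

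All 6 factors scored lower in L84 and in LA than in every control pool, and they split in L60. Foxn1 and Elf5 scored in L60 near the other lines, and Hoxc13, Msx2, Lef1 and Dlx3 scored there near the controls. The promoters of 2 factors of each kind are shown because they let this split be set beside the sequence. RefSeq windows of GRCm38.p6 were listed for 4 of the 6 genes (8 start sites), and the 250 bases before the start are printed 5′ to 3′ on the strand of the gene. The Foxn1 window is chr11:78386609-78386858 on the minus strand, and the Elf5 windows are chr2:103411848-103412097 and chr2:103423818-103424067 on the plus strand. The Msx2 window is chr13:53472781-53473030 on the minus strand, and that of the first of 4 listed Lef1 starts is chr3:131110047-131110296 on the plus strand. Capitals mark the motifs searched on both strands.
Foxn1: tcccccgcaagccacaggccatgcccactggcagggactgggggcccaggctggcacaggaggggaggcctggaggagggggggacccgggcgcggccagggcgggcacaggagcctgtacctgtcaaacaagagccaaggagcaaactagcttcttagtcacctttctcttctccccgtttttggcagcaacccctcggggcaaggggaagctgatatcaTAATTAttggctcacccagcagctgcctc
Elf5 first start: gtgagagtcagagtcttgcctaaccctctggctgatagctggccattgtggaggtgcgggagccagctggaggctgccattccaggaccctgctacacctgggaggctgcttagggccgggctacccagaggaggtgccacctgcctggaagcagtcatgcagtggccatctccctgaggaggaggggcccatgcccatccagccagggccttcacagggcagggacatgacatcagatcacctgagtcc
Elf5 second start: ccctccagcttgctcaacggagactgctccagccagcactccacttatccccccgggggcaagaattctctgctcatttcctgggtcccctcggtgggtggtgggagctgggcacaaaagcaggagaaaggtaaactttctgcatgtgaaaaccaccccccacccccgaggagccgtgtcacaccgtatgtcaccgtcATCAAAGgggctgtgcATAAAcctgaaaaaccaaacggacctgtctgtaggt
Msx2: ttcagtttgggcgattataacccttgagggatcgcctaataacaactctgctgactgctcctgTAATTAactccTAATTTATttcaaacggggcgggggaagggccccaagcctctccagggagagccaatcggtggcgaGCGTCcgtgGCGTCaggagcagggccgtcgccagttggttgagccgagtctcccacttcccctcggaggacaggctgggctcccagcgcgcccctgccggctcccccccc
Lef1 first start: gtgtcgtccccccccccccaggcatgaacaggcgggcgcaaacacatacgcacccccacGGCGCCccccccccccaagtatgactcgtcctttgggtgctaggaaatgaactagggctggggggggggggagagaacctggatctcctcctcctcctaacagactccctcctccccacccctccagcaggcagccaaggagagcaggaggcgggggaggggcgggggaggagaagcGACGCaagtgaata

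Motifs of the factors themselves were searched, with those of FOXO factors, which Akt inhibits, and of the Smad proteins that carry the BMP signal. TAATT, the core bound by Msx and Dlx homeodomains, lay in the Foxn1 window on both strands at overlapping places, 24 to 29 bases before the start. In the Msx2 window it occurred at 3 overlapping or neighbouring places, 172 to 187 bases before the start. TAATT was present in 25% of all 32851 windows of this length. TAATT and TTTAT also occurred before the fourth Lef1 start, whose window is not printed. TTTAT, the core bound by posterior Hox proteins such as Hoxc13, lay in the Msx2 window, where it overlaps a TAATT, and in the second Elf5 window, against 37.3% of all windows. CTTTGAT, bound by Lef1 and its relatives, lay in the second Elf5 window alone among the 8 windows of the members, 46 to 52 bases before the start, against 3.21% of all windows. CTTTGTT, another sequence bound by this family, lay in 0 of the 8 windows (5.03% of all). GACGC, bound by Foxn1, occurred in the Msx2 window and in that of the first Lef1 start (22.6% of all windows). The palindrome GGCGCC, a GC-rich Smad element, lay in that Lef1 window (9.59% of all windows), and the FOXO sequence TGTTTAC in none of the 8 (3.17% of all). AGGAAG, an ETS motif, was likewise before the fourth Lef1 start, against 29.5% of all windows. No motif was thus in both Foxn1 and Elf5, and a match in these windows is a description, not a site.

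Hoxc13 scored 0.718, 1.07 and 1.08 in the LC pools and 0.566 and 0.701 in L60. It scored -0.743 and -1.12 in L84 and -1.21 and -1.05 in LA. Both L60 pools lay just below the lowest control, and all 4 pools of L84 and LA lay far below both groups. Hoxc13 fell in L84 by 1.88 ± 0.17 SD (SE) and in LA by 2.09 ± 0.17 (limma, adjusted p = 0.0291 and 0.0135). In L60 the difference was -0.32 ± 0.17 (adjusted p = 1; 95% interval -0.758 to 0.118). The order of the means was LC, L60, L84, LA, and none of the neighbours in it differed past the threshold (adjusted p = 1, 0.145 and 0.666). LA differed from L60 by -1.77 ± 0.187 (adjusted p = 0.0413).

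Msx2, which marks BMP-responsive matrix cells, followed the same order. It scored 0.615, 1.07 and 1.15 in LC, 0.53 and 0.738 in L60, -1.08 and -0.736 in L84, and -1.1 and -1.19 in LA. The L60 pools overlapped the controls, and the other lines did not. Msx2 fell in L84 by 1.85 ± 0.204 and in LA by 2.09 ± 0.204 (limma, adjusted p = 0.0487 and 0.0202), and the L60 difference was -0.311 ± 0.204 (adjusted p = 1). L84 and LA differed from L60 by -1.54 ± 0.223 and -1.78 ± 0.223, which did not pass (adjusted p = 0.187 and 0.0641).

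Elf5 separated the controls from all transgenic pools. The mean of its 2 probe sets was 1.18, 1.12 and 1.37 in LC and -0.511 and -0.63 in L60. In L84 it was -0.18 and -0.681, and in LA -0.836 and -0.829. No transgenic pool came near a control pool, and L84 1 was the highest among them. Elf5 fell in L84 by 1.65 ± 0.167 and in LA by 2.06 ± 0.167 (limma, adjusted p = 0.0386 and 0.0135). In L60 the difference was -1.79 ± 0.167, the 10th smallest p of 12393 genes in that comparison, yet it did not pass (adjusted p = 0.142). The lines differed from each other by -0.402 to 0.14 (adjusted p = 0.505 to 0.919), with a 95% interval of -0.873 to 0.069 for LA against L84.

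Foxn1 also set the controls apart. Its single probe set scored 1.26, 0.737 and 1.72 in LC, -0.401 and -0.279 in L60, -0.946 and -1.09 in L84, and -0.673 and -0.331 in LA. The controls spread widely (SD 0.494, n = 3), and every transgenic pool still lay below the lowest of them. The differences were -1.58 ± 0.307 in L60, -2.26 ± 0.307 in L84 and -1.74 ± 0.307 in LA. None passed (limma, adjusted p = 0.615, 0.0856 and 0.0701), although the L84 value was the 19th lowest of 12393 genes. That rank favours genes of a single probe set, because averaging several standardised probe sets, as for 4956 genes, can narrow the spread of a gene's score. L84 scored lower than L60 by a difference of -0.679 ± 0.336 and LA differed from L60 by -0.162 ± 0.336 (adjusted p = 0.716 and 0.823).

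Lef1 and Dlx3 varied most among the controls, where LC 1 stood low for both. Lef1 scored 0.249, 1.13 and 1.27 in LC, 0.374 and 0.905 in L60, -1.33 and -0.622 in L84, and -0.986 and -0.99 in LA. All pools of L84 and LA lay below the control and L60 pools. The differences from LC were -0.242 ± 0.408 in L60, -1.86 ± 0.408 in L84 and -1.87 ± 0.408 in LA, and none passed (limma, adjusted p = 1, 0.195 and 0.0999). The mean of the 2 Dlx3 probe sets was 0.0129, 1.32 and 1.3 in LC and 0.162 and 0.703 in L60. It was -1.09 and -0.67 in L84 and -0.816 and -0.922 in LA. LC 1 was thus below both L60 pools and above all pools of the other lines. For Dlx3 the L60, L84 and LA differences from LC were -0.446 ± 0.477, -1.76 ± 0.477 and -1.75 ± 0.477, and none passed (adjusted p = 1, 0.279 and 0.144).

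**Figure D1:**
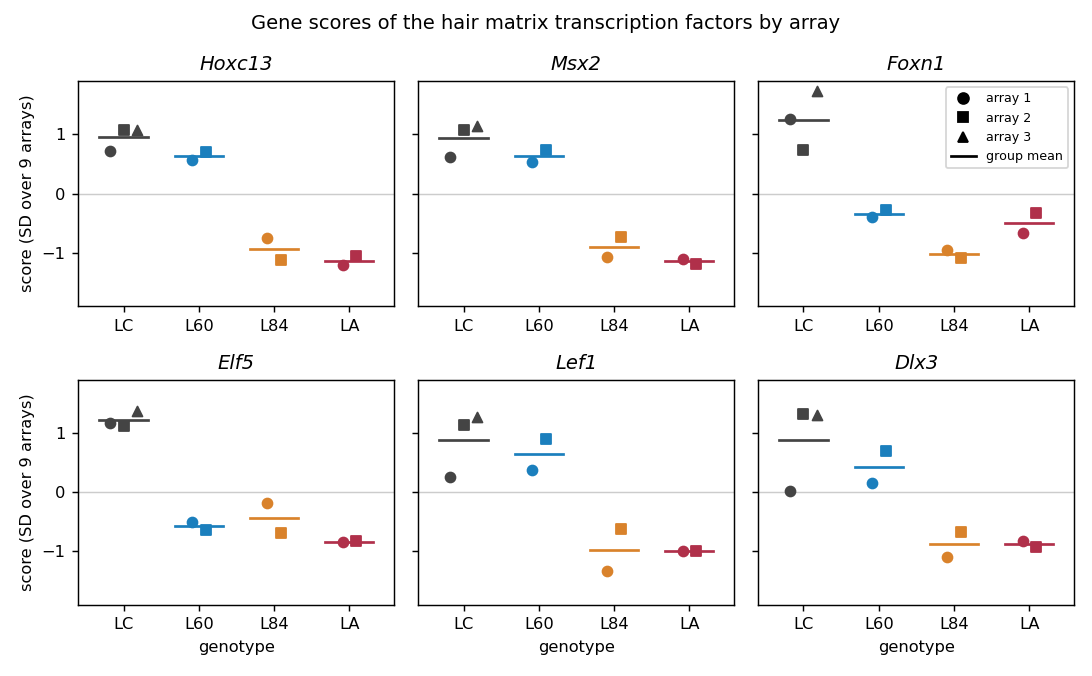
Scores of the 6 genes (vertical axis, SD over the 9 arrays) in each pool, grouped by genotype (horizontal axis), with a line at the group mean and a marker shape for the array number. L60 pools sit beside the controls for Hoxc13, Msx2, Lef1 and Dlx3, and beside L84 and LA for Elf5 and Foxn1.

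The 2 probe sets of Dlx3, which cite the same transcript, did not behave alike. One (1450475_at) scored 0.547, 1.05 and 1.11 in LC, 0.651 and 0.788 in L60, -0.952 and -0.922 in L84, and -1.15 and -1.12 in LA. This profile had little spread within the lines and resembled that of Hoxc13. On its own it differed from LC by -1.84 ± 0.183 in L84 (adjusted p = 0.0514 over all probe sets) and by -2.04 ± 0.183 in LA (adjusted p = 0.0258), so that Dlx3 passed in LA by this probe set. The other (1422037_at) scored -0.521 on LC 1, between the pools of L84 and LA, against 1.6 and 1.49 on LC 2 and LC 3. Its differences were -1.68 ± 0.781 and -1.46 ± 0.781 (adjusted p = 0.553 and 0.367). The Elf5 probe sets shared their direction against LC. The first (1419555_at) gave -1.87, -1.43 and -2 in L60, L84 and LA, and the second (1419556_at) -1.72, -1.87 and -2.11, and neither passed alone in any line (adjusted p = 0.0664 to 1). In L84 the first Elf5 probe set ran from 0.421 to -0.933 between the 2 pools.

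**Figure D2:**
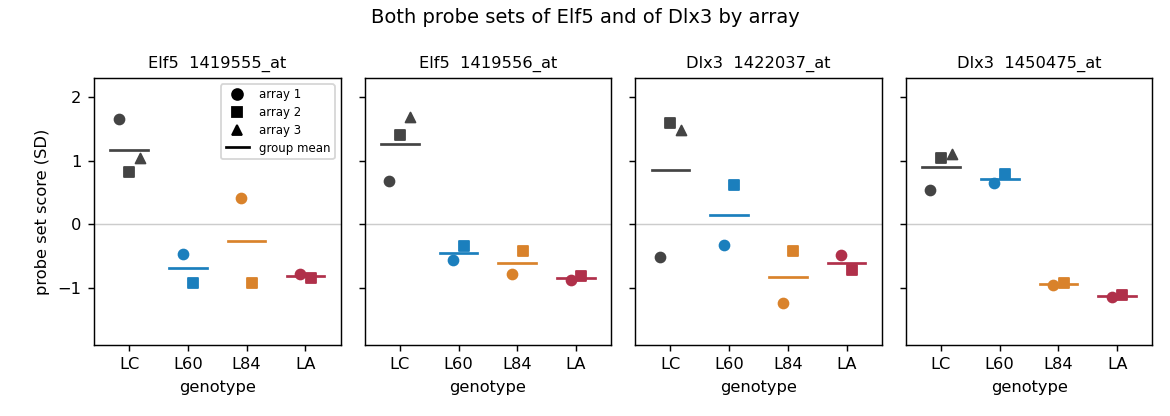
Scores (vertical axis, SD over the 9 arrays) of both Elf5 and both Dlx3 probe sets in each pool by genotype (horizontal axis), with lines at the group means. Dlx3 1422037_at has LC 1 at -0.521, while Dlx3 1450475_at separates LC and L60 from L84 and LA.

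Counted together, 3 of 6 factors (Hoxc13, Msx2 and Elf5) fell in L84, where 0.403% of all genes fell, and the same 3 fell in LA, where 0.984% of all genes fell. Both comparisons share the control pools. The pools did not overlap and were lower for 6 of 6 factors in L84 (14.7% of all genes) and 6 of 6 in LA (21% of all genes). All 6 had an unadjusted p under 0.05 in both lines, as 12.2% of all genes had in L84 and 20.8% in LA. The median difference was -1.85 in L84 and -1.96 in LA, beside 0.003 and 0.247 over all genes. In L60, 0 of 6 passed limma's test (0% of all genes), and 0 did with moderated variance. Elf5 and Foxn1 had an unadjusted p under 0.05, as 4.72% of all genes had in either direction, and the pools of Hoxc13, Foxn1 and Elf5 did not overlap the controls and were lower (10.8% of all genes). The test of any difference among the 4 genotypes passed for Hoxc13, Elf5 and Msx2 (adjusted p = 0.0293, 0.0321 and 0.0487), as for 0.734% of all genes.

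Between the lines, 1 of 6 factors passed against L60 in LA (Hoxc13, lower, as 0.46% of all genes) and 0 of 6 in L84, where 0.0968% of all genes passed as lower. Hoxc13, Msx2 and Lef1 had an unadjusted p under 0.05 in both of these comparisons, as 8.03% of all genes had in L84 and 16.2% in LA. Between LA and L84, 0 of 6 passed (0.0161% of all genes) and 0 had an unadjusted p under 0.05 (10.6% of all genes). Limma with moderated variance called 0 of 6 in each of the 6 comparisons.

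The calls in L84 and LA rest on few degrees of freedom. In L84, 2 of the 3 held without LC 1 (Hoxc13 and Msx2), 1 without L84 1 or L84 2 (Elf5), and 0 without any one of LC 2, LC 3, L60 1, L60 2, LA 1 and LA 2. In LA all 3 held without L84 1 or L84 2, 2 without LC 1, L60 1 or L60 2, and 0 without LC 2, LC 3, LA 1 or LA 2. The call of Hoxc13 in LA against L60 held only without L84 1 or L84 2. The differences themselves moved little: over these 9 omissions they stayed between -2.07 and -1.7 for Hoxc13, -2.02 and -1.68 for Msx2 and -1.9 and -1.4 for Elf5 in L84. In LA they stayed between -2.2 and -2.01, -2.26 and -1.99, and -2.11 and -1.98.

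Against LC, the differences of L60 and L84 held their sign within both 18S classes except for 2 genes in L60, and LA had arrays of the low class alone. Between L84 1 and LC 1, both high in 18S, they were -1.46 for Hoxc13, -1.69 for Msx2, -2.21 for Foxn1, -1.36 for Elf5, -1.58 for Lef1 and -1.11 for Dlx3. Among the arrays low in 18S they were -2.32 to -1.82 in L84 and -2.26 to -1.73 in LA. In L60 the high class gave -1.66 for Foxn1 and -1.69 for Elf5, and the low class -1.51 and -1.88. Lef1 and Dlx3 were instead 0.125 and 0.15 higher on L60 1 than on LC 1, and gave -0.293 and -0.609 in the low class. Elf5 in L84 against L60 was 0.33 in the high class and -0.051 in the low. With the 18S class as a block in the fit, Lef1 was called in L84 (-1.73 ± 0.114, adjusted p = 0.0347) and in LA (-2.12 ± 0.117, adjusted p = 0.0243). Msx2 kept both calls, Hoxc13 and Elf5 kept those in LA and lost those in L84 (adjusted p = 0.0865 and 0.0824), and between LA and L60 Msx2 was called (adjusted p = 0.0432) in place of Hoxc13 (0.113).

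**Figure D3:**
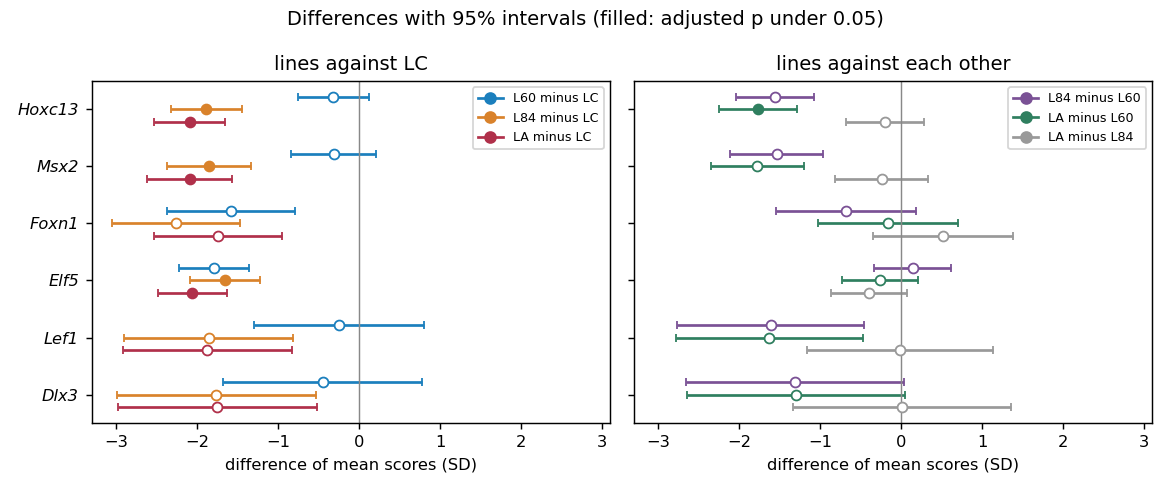
Differences of mean scores with 95% intervals (horizontal axis, SD) for the 6 genes (vertical axis), lines against LC on the left and lines against each other on the right. Filled points passed at an adjusted p under 0.05: Hoxc13, Msx2 and Elf5 in L84 and LA, and Hoxc13 in LA against L60.

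How far L60 had moved towards the other lines was expressed, after the scores had been seen, as its difference from LC in percent of the difference of the mean of L84 and LA. For a gene of 1 probe set this ratio does not change when the probe set is shifted or rescaled, though it would change with a log transform. For Elf5 and Dlx3 it also depends on how their 2 probe sets are scaled to each other. The L60 differences from LC were -0.711 ± 0.781 (1422037_at) and -0.182 ± 0.183 (1450475_at) for Dlx3. For Elf5 they were -1.87 ± 0.483 (1419555_at) and -1.72 ± 0.323 (1419556_at). The ratio was 13 ± 20.9% (SE) for Lef1, 15.8 ± 9.76% for Msx2, 16.1 ± 8.1% for Hoxc13 and 25.4 ± 25% for Dlx3. For Foxn1 it was 79 ± 13.8% and for Elf5 96.7 ± 8.47%. Leaving out each array moved Elf5 between 90.6 and 104%, Foxn1 between 75.8 and 82.5%, Hoxc13 between 12.7 and 20.8%, Msx2 between 10.5 and 22.3% and Dlx3 between 10 and 40.8%. Lef1 ran from -1.26% without L60 1 to 27.2%, so that its place near 0 or near Dlx3 rests on single arrays. The ranges of Foxn1 and Elf5 did not reach those of the other 4 factors, and a difference between the genes was not tested.

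Hair keratins and genes of the inner root sheath gave the same ratio a scale. The hair shaft keratins, the filaments that hair factors are known to switch on, had 12 of 16 listed genes measured, and 9 of 12 fell in L84 and 9 of 12 in LA. Leaving out each array gave 2 to 8 and 5 to 9 falls. Their L60 ratio ran from 12.5% for Krt35 to 83.6% for Krt84, with a median of 48.9%. Krt35, a keratin of the early cortex and cuticle, lay just below Lef1 on this scale, while Krt36 stood at 61.2 ± 5.43%. The list of the inner root sheath, the layer that moulds the shaft, had 9 of 13 genes measured, of which 6 fell in L84 and 7 in LA (1 to 7 and 2 to 8 over the omissions), and its L60 ratio ran from 6.68% for Krt25 to 89.9 ± 29.3% for Tgm3, with a median of 17.9%. The sheath keratins Krt25, Krt27 and Krt71 stood at 6.68 ± 2.63%, 7.76 ± 6% and 7.92 ± 6.95%, but the sheath keratin Krt72 at 38.3 ± 10.7%. Padi3, an enzyme that citrullinates sheath and medulla proteins, stood at 17.9 ± 6.64%, and Crym and Ctsl at 29.6 ± 9.65% and 63.3 ± 47%. The upper end of the sheath range rests on Tgm3 and Ctsl, which had large SEs and were not called in any line. The other measured sheath genes ran from 6.68 to 38.3%. Among the shaft keratins the highest ratios, those of Krt84 and Krt32, also had large SEs. Msx2 and Hoxc13 lay just below Padi3, and Foxn1 lay between Krt32 (66.1 ± 30.7%) and Krt84 (83.6 ± 19.4%).

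**Figure D4:**
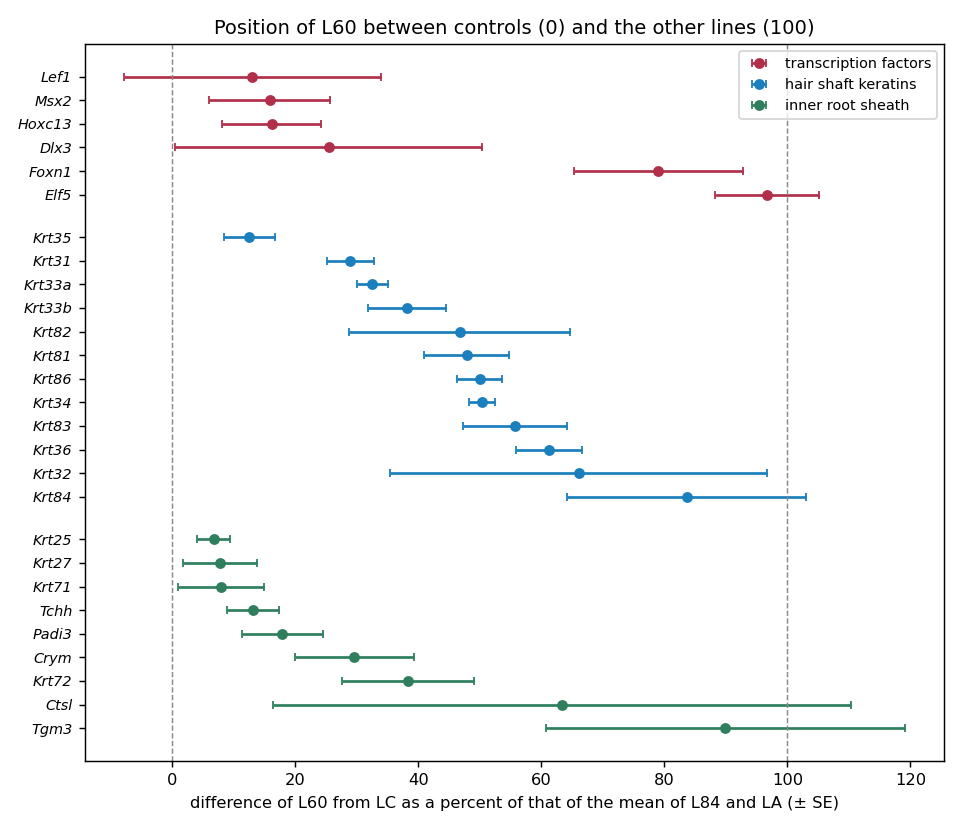
Difference of L60 from LC as a percent of the difference of the mean of L84 and LA from LC (horizontal axis, ± SE), for each factor, hair shaft keratin and inner root sheath gene (vertical axis). Foxn1 (79%) and Elf5 (96.7%) lie far from Lef1, Msx2, Hoxc13 and Dlx3 (13 to 25.4%).

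Likeness between genes was measured as the mean absolute difference of their scores over the 9 arrays, which share genotype and array effects. Among the 12392 other genes, Msx2 was the 7th nearest to Hoxc13 (0.136 SD), and Lef1 and Dlx3 were the 3rd nearest to each other (0.155 SD). Msx2 was the 5th nearest to Lef1 (0.172 SD). Elf5 was the 36th nearest to Foxn1 and Foxn1 the 60th nearest to Elf5 (0.347 SD). Hoxc13, by contrast, was only the 498th nearest to Elf5 (0.535 SD) and the 375th nearest to Foxn1 (0.551 SD).

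The nearest genes outside the set differed in the same way. For Hoxc13 they were Fhod3, Pinlyp and Padi3 (0.084, 0.0924 and 0.0968 SD). For Msx2 they were Tyrp1, an enzyme of melanin synthesis, Padi3 and Krt27 (0.0898, 0.109 and 0.111 SD). For Lef1 they were Lmnb1, which encodes lamin B1, Smox and Fads2 (0.132 to 0.162 SD). For Dlx3 they were Plk2, Tle3, a corepressor of the Groucho family, and Krt75, the companion layer keratin (0.126 to 0.171 SD). The genes nearest to Foxn1 were Atoh7, Cybrd1 and Chac1 (0.226 to 0.248 SD), and those nearest to Elf5 were Krtap9-3, Stbd1 and Krtap14 (0.227 to 0.249 SD). Krtap9-3 and Krtap14 encode keratin-associated proteins, which cross-link the keratins of the shaft. To the mean of the 6 factors, Map3k6, Minpp1, Krt75, Crym and Krt72 were nearest (0.128 to 0.157 SD), followed by Krt86, Krtap13-1, Gabrp, Krtap8-1 and Gja1 (0.16 to 0.166 SD).

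Other transcription factors of the follicle moved less uniformly. Of 30 listed, 27 were measured. Against LC, limma called 0 in L60 (1 with an unadjusted p under 0.05), 0 in L84 (7) and 1 in LA (8), and moderated variance called 0 in each. Over all genes, 4.72, 12.2 and 20.8% had an unadjusted p under 0.05 in these lines. The 1 factor in L60 was lower, and the others were 5 lower and 2 higher in L84 and 6 lower and 2 higher in LA. The median differences over the 27 were -0.076, -0.585 and -0.989, beside 0.078, 0.003 and 0.247 over all genes. The gene called was Tbx3, a T-box factor, which was 1.17 ± 0.12 SD higher in LA (adjusted p = 0.0238), as 0.815% of all genes were, and differed by -0.112 ± 0.12 in L84. The Tbx3 call held without L84 1 or L84 2 and was lost without each of the other 7 arrays (adjusted p up to 0.104). Foxq1, which acts below Hoxc13 in the hair medulla, had differences of -1.55 in L60, -1.88 in L84 and -1.56 in LA (adjusted p = 1, 0.352 and 0.248). Ovol1, a zinc finger factor below Lef1, differed by -0.877, -1.78 and -1.97 (adjusted p = 1, 0.253 and 0.111), and Sox21, a factor of the hair cuticle, by -0.165, -1.8 and -1.76 (adjusted p = 1, 0.279 and 0.146). Gata3, a regulator of the inner root sheath, differed by 0.404, -0.015 and -0.236 (adjusted p = 1, 0.998 and 0.917). Nfatc1 and Satb1 scored above every control pool in L84 (1.51 and 1.767, limma, adjusted p = 0.328 and 0.37). They did so in LA as well (1.786 and 1.369, adjusted p = 0.133 and 0.282).

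Relatives of the 6 factors did not share their profile as a group. Of 29 listed relatives 24 were measured, and Dlx2 was the one called in L84 and in LA. In L60 0 were called (1 with an unadjusted p under 0.05, as 4.72% of all genes had). Dlx2 fell by 2.1 ± 0.173 in L84 and by 2.12 ± 0.173 in LA (limma, adjusted p = 0.0227 and 0.0135), and its L60 difference was -0.857 (adjusted p = 0.653). Its L84 call was lost without any one array (adjusted p = 0.0506 to 0.146), and its LA call without LC 1, LC 2, LC 3 or LA 2 (0.0532 to 0.0939). Msx1, the paralog of Msx2, had differences of 0.16 in L60, -1.57 in L84 and -0.385 in LA (adjusted p = 1, 0.347 and 0.677). The other measured genes of the Hoxc cluster, Hoxc4, Hoxc5, Hoxc6, Hoxc8 and Hoxc9, differed by -1.22 to 2.21 in L84 and by 0.77 to 1.59 in LA, and none passed. The ETS relatives Elf3 and Ehf differed by -1.19 and -1.32 in L60, by -0.255 and -0.309 in L84 and by -1.66 and -0.231 in LA (adjusted p = 0.309 to 1).

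The signals that reach the matrix were measured for all 28 listed genes, and 0 passed in any line against LC with limma or with its moderated variance. An unadjusted p under 0.05 was seen for 1 of them in L60, 6 in L84 and 7 in LA, beside 4.72, 12.2 and 20.8% of all genes. The 1 in L60 was higher, and the others were 5 lower and 1 higher in L84 and 4 lower and 3 higher in LA. Among the higher ones, Fgfr2 differed by 1.739 in L84, and Wnt3a and Nog by 2.022 and 1.783 in LA (limma, adjusted p = 0.217, 0.181 and 0.237). Bmp4, a ligand of the BMP pathway, had differences of 0.132 in L60, -2.14 in L84 and -0.889 in LA (adjusted p = 1, 0.162 and 0.287). The BMP receptor Bmpr1a differed by -0.246, -1.29 and -1.25 (adjusted p = 1, 0.252 and 0.133). Wnt5a differed by -0.228, -1.91 and -1.67 (adjusted p = 1, 0.154 and 0.0934), and Axin2, a Wnt target, by -0.33, -0.732 and 0.859 (adjusted p = 1, 0.312 and 0.13). The median over the list was 0.096 in L60, -0.449 in L84 and -0.62 in LA.

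Marker lists of the cells around these factors were set beside them on each array. The mean of the 6 factors was 0.673 to 1.31 on the LC arrays, 0.12 and 0.356 in L60, -0.894 and -0.82 in L84, and -0.937 and -0.886 in LA. The mean of 20 proliferation genes (of 21 listed) was 0.301 to 0.493 in LC and 0.734 and 0.961 in L60, above every control. It was -0.807 and 0.115 in L84 and -1.24 and -1.04 in LA. In L60, 0 of 20 passed, 3 had an unadjusted p under 0.05 (4.72% of all genes), and 11 had pools that lay above the controls without overlap (14.4% of all genes). In L84 0 of 20 passed (8 with an unadjusted p under 0.05, as 12.2% of all genes had). In LA 6 fell (0.984% of all genes), among them Mki67 by 2.14 and Mcm2 by 1.99 (limma, adjusted p = 0.0176 and 0.0323), with 0 to 9 over the 9 omissions. On the arrays of L84 and LA the means of the factors and of the proliferation genes both lay below every control array.

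Pigment cells sit in the hair bulb, and 10 of 12 melanocyte genes were measured. Their mean was 0.408 to 0.96 in LC, -0.0662 and 0.403 in L60, -0.877 and -0.498 in L84, and -0.808 and -0.324 in LA. In L84 2 of 10 fell (Tyrp1 and Dct) and in LA 3 of 10 (Dct, Pmel and Tyrp1), with 0 to 3 in each over the omissions. The 8 basal epidermal markers had means of -0.967 to -0.617 in LC, 0.0096 and -0.122 in L60, 1.36 and 0.427 in L84, and 0.576 and -0.0232 in LA. Every transgenic array thus lay above the controls, and 2 of 8 markers were called higher in L84 and 2 of 8 in LA. Lymphocytes, which also express Lef1, had 7 of 8 markers measured, with means of -0.837 to -0.351 in LC, -0.463 and 0.196 in L60, 0.179 and -0.0414 in L84, and 1.38 and 0.517 in LA, where Lef1 was low. Luminal markers of mammary and sweat glands, which can express Elf5, had means of -0.38 to 0.0911 in LC, -0.573 and 0.145 in L60, and 0.174 to 0.291 in L84 and LA over 9 of 9 markers. Limma called 0 of the lymphocyte and 0 of the luminal markers against LC. An unadjusted p under 0.05 was seen for 0, 1 and 3 lymphocyte markers in L60, L84 and LA. It was seen for 1, 2 and 1 luminal markers, beside 4.72, 12.2 and 20.8% of all genes. Luminal differences were below 0 for 5 of 9 markers in L60, 2 in L84 and 3 in LA. Among them Krt18 was lower in each line (-1.755, -1.928 and -1.43), whereas Krt19 was higher in L84 (1.9). Dermal papilla markers, from the mesenchyme that the matrix encloses, had means of -0.264 to 0.131 in LC over 10 of 12 markers, and lay above every control in L60 (0.453 and 0.241). They were -0.771 and 0.26 in L84 and -0.559 and 0.409 in LA.

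Lists of other skin cells also differed between the arrays. The 7 of 10 measured markers of differentiated epidermis had means of -0.646 to -0.492 in LC, 0.204 and -0.572 in L60, 0.759 and 0.0809 in L84, and 0.786 and 0.496 in LA, with 1 called higher in L84 and 2 in LA. Skeletal muscle, from the layer under the skin, had means over 8 markers of -0.543 to -0.233 in LC, -1.05 and -0.59 in L60, 1.43 and 0.142 in L84, and 0.99 and 0.317 in LA. No muscle marker was called by limma, and 1, 4 and 3 of 8 had an unadjusted p under 0.05 in L60, L84 and LA. Over all genes 4.72, 12.2 and 20.8% had one. The 1 muscle marker in L60 was lower, and those in L84 and LA were higher. Adipocyte markers (5 of 7) had means of 0.196 to 0.727 in LC, 0.234 and -0.124 in L60, -0.809 and -0.393 in L84, and 0.336 and -0.643 in LA. Macrophage and fibroblast markers were low on L84 1 (-1.38 and -1.53) and high on L84 2 (0.625 and 0.591), on LA 1 (1.21 and 0.966) and on LA 2 (0.635 and 0.611), against -0.525 to -0.0936 in LC. The L60 arrays differed in the same direction, with -0.89 and -0.25 on L60 1 and 0.96 and 0.33 on L60 2. Sebaceous and endothelial markers lay between -0.777 and 0.399 on all arrays. The part of any of these cells, of proliferation or of the stage of hair growth in the differences of the factors was not tested.

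**Figure D5:**
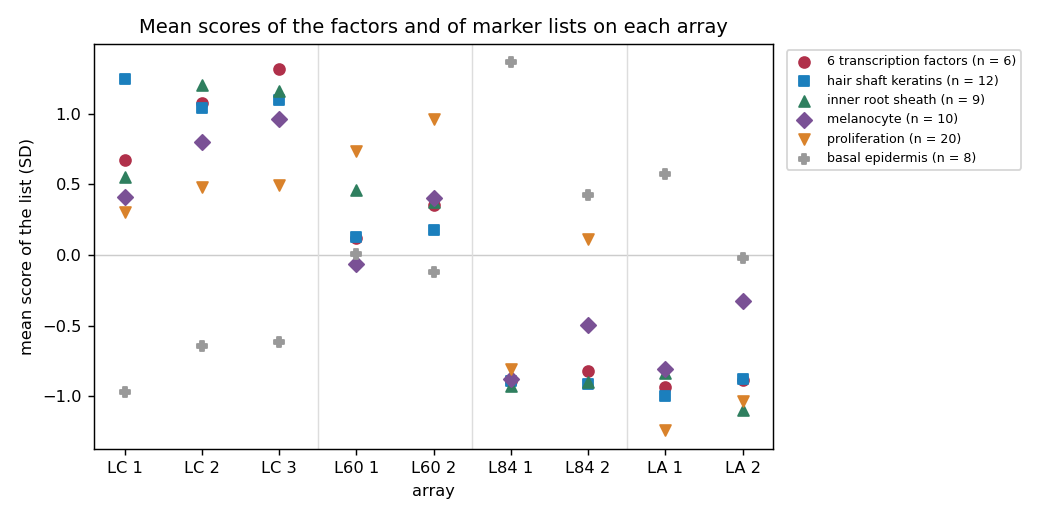
Mean score (vertical axis, SD) of the 6 factors and of 5 marker lists on each array (horizontal axis). On the L60 arrays the proliferation genes (0.734 and 0.961) lie above the factors (0.12 and 0.356), and on the LA arrays both lie below -0.8.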

How the data were processed

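Total RNA pools of whole skin were measured on 9 Affymetrix arrays. RMA is named, with no version, in the submitters' processing notes. The deposited values are a score, with every probe set at mean 0 and SD 1 over the arrays, and whether they were on a log scale when standardised is not given in the sources used here. Probe sets annotated to a single gene were averaged into 1 score per gene. Ties occurred in 44.3% of probe sets but in 0 of the 8 of the members. All 9 arrays entered 1 limma fit (version 3.58.1, R 4.3.3) with a mean per genotype, which left 5 residual degrees of freedom, without variance moderation, because each probe set had been scaled to the same total SD. Moderation raised the SE of the factors against LC and called 0 of them. P-values were Benjamini-Hochberg adjusted over 12393 genes, and called means an adjusted p under 0.05. The fit was tested on simulated data.

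The members and lists were chosen with earlier results of these data known. The members were named whatever their values, with the 3 nearest genes of each (10 for their mean) by mean absolute score difference, without predicted or clone-named genes, and genes of the fixed lists. Alternatives left out each array and the arrays high in 18S, and used replicate number or 18S class as a block, array weights, 2 groups only, single probe sets, moderated variance and array medians of 0.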

Additional observations from a re-analysis of the deposited data

Results flagged for a closer look

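Hoxc13 differed between LA and L60 by -1.77 SD (limma, adjusted p = 0.0413), so its difference from the shared controls was unlike in these lines; it was lower on both LA arrays than on both L60 arrays. Over the 17 alternative settings the adjusted p ran from 0.0314 to 0.421, and 3 of the 17 called it. No other factor passed a comparison between lines, and with 2 or 3 arrays in a group no test for a single outlying array was made.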

How the results depend on the processing

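None of the 7 called differences of the factors changed sign under the 17 alternative settings, but most calls did not hold. Leaving out each array gave 0 to 2 called factors for L84 against LC (3 in the report), 0 to 3 for LA against LC (3), 0 to 1 for LA against L60 (1) and 0 to 2 for any difference among the genotypes (3). The same omissions gave, over all genes, 0 to 5 calls for L60 against LC (0), 5 to 129 for L84 against LC (70), 40 to 306 for LA against LC (223), 3 to 15 for L84 against L60 (14), 4 to 112 for LA against L60 (78), 0 to 131 for LA against L84 (2) and 6 to 188 among the genotypes (91). Arrays of the same replicate number were not taken as pairs in the main fit, and whether they were pairs is not settled. The correlation of their deviations was -0.083 to 0.345, and Xist was low on each array numbered 1. With 2 arrays in a line the 2 deviations mirror each other, so these correlations cannot decide it. With a replicate block 0 factors were called in each comparison, and 1, 3, 1, 0, 1, 1 and 1 genes in the order above. Moderated variance called 0 factors and 0 genes in each. With only the arrays of the 2 groups, 0 factors were called against LC or L60, and 4, 19, 38, 0, 3 and 0 genes in the first 6 comparisons. Without the arrays high in 18S 0 factors were called, and 11, 12, 1, 13, 9 and 11 genes for L60, L84 and LA against LC, LA against L60, LA against L84 and the genotypes. With 18S class as a block, 2 factors were called for L84 against LC (Msx2 and Lef1), 4 for LA against LC (Lef1 added), 1 for LA against L60 (Msx2) and 1 among the genotypes (Msx2), and 44, 139, 3, 22, 0 and 24 genes from L84 against LC onwards. Array weights called 0 factors for L84 against LC and LA against L60, and 9, 19, 4, 42 and 0 genes for L60 and L84 against LC and the 3 comparisons between lines. Single probe sets called 1 factor for L84 against LC, 0 for LA against L60 and 1 among the genotypes, and 0 probe sets for LA against L84, and array medians of 0 called 7 genes for L84 against L60. The cause of these changes was not tested. The L60 percentages and their alternatives were chosen after seeing the data. The number of arrays limits precision, and signal over background is not given by standardised scores.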
